A study of Homo sapiens with 2 samples.

Results

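Glycogen metabolism genes were followed in PLC/PRF/5 cells treated with JIB-04. The 10 genes were GYS1, GYS2, GBE1, PYGL, PYGB, PGM1, UGP2, PPP1R3B, PPP1R3C and PPP1R3G, a list of symbols that was matched by Entrez identifier to the 27685 genes of the deposited data. The rule that lists them uses no measured value. PLC/PRF/5 is an established human hepatocellular carcinoma cell line. Cells were kept for 24 h in DMSO, the solvent control, or for 24 h in 6 µM JIB-04, an inhibitor of Jumonji-domain histone demethylases, and stranded polyadenylated RNA of each condition was sequenced as 1 library, called the control library and the JIB-04 library here. A label calls the control cells untreated, whereas the title and the methods of the study name DMSO, and the library was taken as the DMSO control. There were no replicates, so each difference compares 2 libraries and carries no test.

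Glycogen is the branched glucose polymer in which hepatocytes and muscle store glucose. Glucose 6-phosphate is turned into glucose 1-phosphate by phosphoglucomutase (PGM1), and this into UDP-glucose by UDP-glucose pyrophosphorylase (UGP2). Glycogen synthase (GYS1, the widely expressed muscle form, and GYS2, the liver form) adds the glucose units, the branching enzyme (GBE1) makes the branch points, and glycogen phosphorylase (PYGL, the liver form, and PYGB, the brain form) removes glucose units again. The PPP1R3 proteins bring protein phosphatase 1 (PP1) to glycogen, where it activates the synthase and inactivates the phosphorylase. GYS1, GBE1, PGM1 and PPP1R3C are among the genes known to be induced by low oxygen.

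Transcripts of the synthase gene GYS1, of the branching enzyme gene and all 3 PP1 targeting subunits on the list were more abundant after JIB-04 than in the DMSO-treated control, and so were those of the phosphorylases and of the enzymes that supply UDP-glucose. The log2 ratios of GYS1, GBE1, PPP1R3C and PPP1R3G were near or above 2, and those of the other 5 described genes lay between 0.41 and 1.22. Levels are given as TPM, or transcripts for every 1000000, which is a share of all transcripts corrected for length, summed over the transcripts of a gene. In the control library the levels ran from 0.41 TPM for GYS2 to 156 TPM for PGM1, and in the JIB-04 library from 0.23 TPM for GYS2 to 507 TPM for GYS1. The log2 ratio is that of TPM + 1 in the JIB-04 library over TPM + 1 in the control library, and a gene was described when it reached 1 TPM in either library. Of the 10 genes, 9 were described and GYS2 was not. A ratio of at least 2 was called higher and a ratio of at most 0.5 lower. By this rule 6 of the 9 genes were higher, namely GYS1, GBE1, PYGL, PPP1R3B, PPP1R3C and PPP1R3G, against 5.99% of the 14450 described genes in the data. None of the 9 was lower, against 6.88% of the described genes. PYGB, PGM1 and UGP2 had ratios between these limits. The median log2 ratio of the 9 genes was 1.22, whereas that of all described genes was -0.15, with a standard deviation over genes of 0.70. The summed level of the 10 genes was 561 TPM in the control library and 1449 TPM in the JIB-04 library. Scaling the libraries so that the median of well expressed genes was 0 added 0.15 to each log2 ratio and carried PGM1 past 2-fold, at 1.03. PPP1R3B missed 2-fold with a pseudocount of 5 TPM, at 0.77, or with FPKM in place of TPM, at 0.99.

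**Figure D1:**
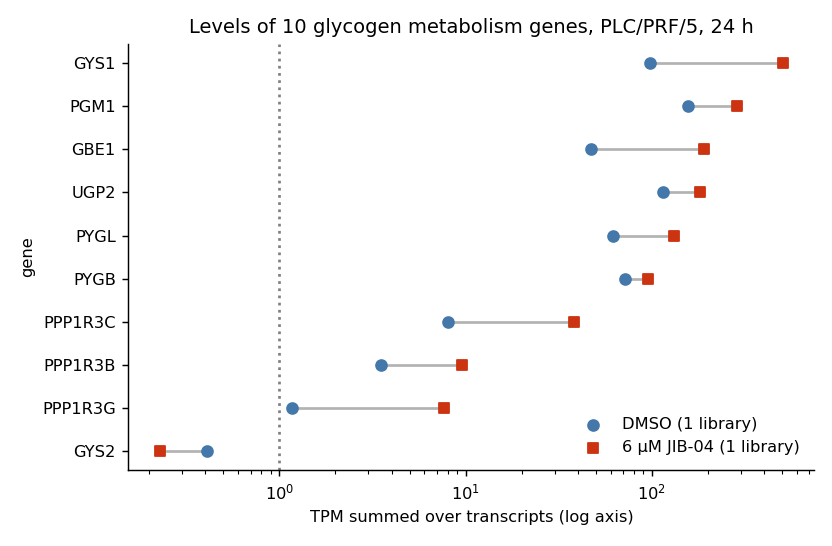
Level of each glycogen metabolism gene, in TPM summed over its transcripts on a log axis, in the DMSO control library (blue circles) and in the JIB-04 library (red squares), 1 library per condition, with the dotted line at 1 TPM. GYS1 moves from 97.6 to 507 TPM and becomes the most abundant of the 10, and GYS2 stays below 1 TPM in both libraries.

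An estimated 28187793 fragments were aligned in the control library and 23721989 in that of JIB-04, a fragment being a pair of mates with 202 aligned bases in all. The counting error given in brackets is a 95% interval of the ratio, from an exact conditional binomial calculation on the fragments of a gene. It leaves out differences between cultures and between library preparations. In the RNA of a whole culture, fewer cells of a kind and less RNA per cell cannot be told apart. Of 10 hepatocyte markers 10 were described, with a sum of 1758 TPM in the control library and 1862 TPM in the JIB-04 library. The clotting protein gene FGB was at 771 and 961 TPM and the fetal liver protein gene AFP at 131 and 151 TPM, whereas albumin (ALB) was at 9.74 and 4.53 TPM and the apolipoprotein gene APOA1 at 1.34 and 0.99 TPM. By the ratio of TPM + 1, APOB, of the lipoprotein particles, was the single hepatocyte marker past 2-fold, at 103 and 32.9 TPM. For ALB this ratio was 0.515, and it was 0.465 for TPM alone. The 4 muscle markers CKM, MYH7, ACTA1 and DES summed to 0.60 and 0.87 TPM, and the 3 endothelial markers to 0.54 and 0.34 TPM with CDH5 at 0 in both. Among the 5 leukocyte markers, which summed to 155 and 180 TPM, PTPRC was at 0 in both libraries and CD68 and LYZ held nearly the whole sum. The 4 stellate cell or fibroblast markers summed to 20.7 and 13.4 TPM. The part of these differences between markers in the results was not tested.

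Promoter sequences of 5 of the genes are shown because they bracket the differences between the libraries. GYS1, GBE1 and PPP1R3C had ratios near or above 4, and the phosphorylase genes PYGL and PYGB differed from each other in their ratios. PPP1R3G also had a ratio near 4, at 3.98 on 24 and 130 fragments, and its sequence is not among the 5 shown. Each line gives the 250 bases before the annotated start, 5′ to 3′ on the strand of the gene, from RefSeq on the assembly GRCh38.p14. They lie at chr19:48993310-48993559 for GYS1, chr3:81761646-81761895 for GBE1, chr10:91633072-91633321 for PPP1R3C and chr14:50944484-50944733 for PYGL, all on the minus strand, and at chr20:25247835-25248084 on the plus strand for PYGB. Capitals mark ACGTG and GCGTG, the core letters known from hypoxia response elements, on either strand, so that CACGT and CACGC are their reverse complements, and CACGTG, the E-box letters, which hold ACGTG on both strands.
GYS1: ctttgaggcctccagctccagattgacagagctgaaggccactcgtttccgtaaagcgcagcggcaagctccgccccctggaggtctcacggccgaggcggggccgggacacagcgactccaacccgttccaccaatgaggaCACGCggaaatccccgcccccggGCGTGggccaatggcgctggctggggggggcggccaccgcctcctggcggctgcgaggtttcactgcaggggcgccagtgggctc
GBE1: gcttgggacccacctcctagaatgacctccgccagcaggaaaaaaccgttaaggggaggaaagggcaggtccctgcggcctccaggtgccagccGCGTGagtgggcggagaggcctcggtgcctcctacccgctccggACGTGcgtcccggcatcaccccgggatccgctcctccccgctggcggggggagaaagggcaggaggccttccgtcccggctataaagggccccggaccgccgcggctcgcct
PPP1R3C: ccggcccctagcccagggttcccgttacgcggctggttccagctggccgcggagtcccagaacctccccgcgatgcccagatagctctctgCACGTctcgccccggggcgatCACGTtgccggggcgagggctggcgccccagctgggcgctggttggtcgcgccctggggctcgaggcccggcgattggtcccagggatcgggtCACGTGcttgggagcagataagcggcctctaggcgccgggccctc
PYGL: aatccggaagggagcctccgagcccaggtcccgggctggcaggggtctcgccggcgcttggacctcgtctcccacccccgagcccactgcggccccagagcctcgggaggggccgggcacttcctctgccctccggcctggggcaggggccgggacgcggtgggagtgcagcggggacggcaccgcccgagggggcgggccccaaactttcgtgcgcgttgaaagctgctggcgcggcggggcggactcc
PYGB: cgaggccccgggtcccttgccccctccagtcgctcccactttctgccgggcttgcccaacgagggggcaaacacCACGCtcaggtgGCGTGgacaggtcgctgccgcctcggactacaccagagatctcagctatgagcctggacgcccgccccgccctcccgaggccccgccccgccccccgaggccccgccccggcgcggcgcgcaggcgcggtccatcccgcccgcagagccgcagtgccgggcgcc

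Before the start of GYS1, GCGTG was found at 108 bases on the minus strand of the gene and at 85 bases on its plus strand. GBE1 held GCGTG at 156 bases and ACGTG at 112 bases before its start. PPP1R3C held ACGTG on the minus strand at 159 and 138 bases and CACGTG at 45 bases before its start, and of the genes on the list it was the only one with CACGTG among those with a window in the table. PYGB held GCGTG at 176 bases on the minus strand and at 164 bases on the plus strand. PYGL held none of the motifs. The table of promoter windows, each of 250 bases before a start and 50 bases after it, had 11 windows for 8 of the 10 genes, and GYS2 and PPP1R3B had no window there. Either ACGTG or GCGTG was present in 8 of the 11 windows, belonging to 7 of the 8 genes. PGM1 and UGP2, with log2 ratios of 0.88 and 0.66, held both motifs, but not in each of their windows. For PGM1 both motifs lay in window 2, counted 5′ to 3′, and windows 1 and 3 held neither. For UGP2 window 1 held both and window 2 held GCGTG alone. These windows were not matched to the transcript starts in the files, so that of the main transcript was not identified. PPP1R3G held GCGTG at 93 bases before its start. PGM1 and UGP2 have more than 1 window each, and the share of all genes with a match was not computed. Over all 35116 windows of the table, ACGTG was present in 21.4%, GCGTG in 36.5%, either of them in 48.4% and CACGTG in 7.26%. A match describes the sequence alone.

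GYS1 (Entrez 2997, minus strand of chromosome 19 of hg19, 49471382 to 49496610), which encodes the synthase that lengthens the glucose chains, was at 97.6 TPM in the control library and 507 TPM in the JIB-04 library. The ratio of TPM + 1 was 5.15, with a log2 ratio of 2.37 (counting error 2.32 to 2.41, on 4197 and 18000 fragments). Of the 14450 described genes, 88 had a higher ratio. The difference was carried by the main transcript NM_002103, which made 96.5% of the GYS1 level in the control library and 95.6% in the JIB-04 library. Both other annotated transcripts were also higher, NM_001161587 with a log2 ratio of 2.32 and NR_027763 with one of 1.91. All 16 exons of NM_002103 had a coverage more than 2-fold higher in the JIB-04 library, with log2 ratios from 2.07 to 2.49. The GYS1 difference therefore ran along the whole transcript.
GYS2 (Entrez 2998, minus strand of chromosome 12, 21689123 to 21757781), the synthase gene typical of liver, was at 0.41 TPM in DMSO and 0.23 TPM after JIB-04, from 15 and 7 estimated fragments. Its log2 ratio of -0.20 had an interval from -0.46 to 0.13, so a difference was not detectable at this depth. GYS1 made 99.6% of the glycogen synthase TPM in the control library (95% exact Clopper-Pearson interval 99.3% to 99.8%) and 99.96% in the JIB-04 library (interval 99.91% to 99.98%). The hepatoma line thus held nearly all of its synthase transcripts as the muscle form in either condition.
RUVBL2, which encodes an AAA+ ATPase of chromatin remodeling complexes, starts 95 bases from the start of GYS1 on the opposite strand. It was at 185 TPM in DMSO and 135 TPM after JIB-04, a log2 ratio of -0.46 (counting error -0.53 to -0.39). GYS1 and RUVBL2 thus had log2 ratios of opposite sign, and the median log2 ratio of all described genes was -0.15. Of the 2 RUVBL2 windows in the promoter table, 1 shares 238 bases with that of GYS1 and the other shares none, and the windows, on GRCh38.p14, were not matched to the starts in the files, on hg19. None of the other 9 genes had a start on the opposite strand within 2000 bases of its own. No exonic base of the 10 genes was shared with another annotated gene.

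GBE1 (Entrez 2632, minus strand of chromosome 3, 81538850 to 81810950) encodes the branching enzyme, whose loss causes glycogen storage disease with poorly branched glycogen. It was at 47.0 TPM in the control library and 190 TPM in the JIB-04 library, a ratio of 3.97 and a log2 ratio of 1.99 (counting error 1.91 to 2.07, on 1736 and 5783 fragments). Higher ratios were found in 175 of the described genes. GBE1 has 1 annotated transcript in the files, and all 16 of its exons were past 2-fold. The exon log2 ratios had a median of 2.11 and were lowest in the last exon, at 1.28. The last exon of GBE1 stood 0.83 below the median exon (a difference of -0.83 on the log2 scale), and in 2.75% of 3274 genes with at least 5 exons and a coverage of at least 20 in each exon of both libraries this difference was lower still. The ratio of the GYS1 level to the GBE1 level was 2.08 in the control library and 2.67 in the JIB-04 library.

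Of the 3 PP1 targeting subunits on the list, PPP1R3C, also known as PTG, was the most abundant in both libraries. PPP1R3C (Entrez 5507, minus strand of chromosome 10, 93388198 to 93392858) was at 8.02 TPM in DMSO and 37.9 TPM after JIB-04, a log2 ratio of 2.11 (counting error 1.92 to 2.30, on 246 and 959 fragments). Its 2 exons had log2 ratios of 1.45 and 2.26. Of the described genes, 140 had a higher ratio than PPP1R3C.
PPP1R3G (Entrez 648791, plus strand of chromosome 6, 5085720 to 5087455), a subunit reported to act in liver after feeding, was at 1.17 TPM in DMSO and 7.64 TPM after JIB-04. Its log2 ratio of 1.99 had a wide interval, 1.59 to 2.37, because it rested on 24 and 130 estimated fragments. At this low level the value depended on the pseudocount, and it was 2.61 with 0.1 TPM and 1.03 with 5 TPM. PPP1R3G thus passed 2-fold under each of these pseudocounts, with an uncertain size.
PPP1R3B (Entrez 79660, minus strand of chromosome 8, 8993764 to 9009152), the hepatic subunit known as GL, was at 3.53 TPM in DMSO and 9.57 TPM after JIB-04. Its log2 ratio was 1.22 (counting error 1.04 to 1.41, on 235 and 526 fragments). Of its 2 transcripts, NM_024607 was at 2.87 and 8.30 TPM and NM_001201329 at 0.66 and 1.28 TPM. Both exons of NM_024607 were past 2-fold, with log2 ratios of 1.19 and 1.54.
The family has 4 further members, which were taken from a wider list of glycogen genes. PPP1R3D was at 10.8 and 9.19 TPM in the control and the JIB-04 library, a log2 ratio of -0.21 (counting error -0.40 to -0.01). PPP1R3E stood at 4.68 and 8.08 TPM (log2 ratio 0.68), PPP1R3F at 3.50 and 2.67 TPM, and the muscle subunit PPP1R3A was listed at 0 in both. The ratios thus differed within the family, with PPP1R3B, PPP1R3C and PPP1R3G past 2-fold and PPP1R3D, PPP1R3E and PPP1R3F not. The summed level of the 7 genes was 31.7 TPM in DMSO and 75.1 TPM after JIB-04. PPP1R3D made 34.0% of this sum in the control library and 12.2% in the JIB-04 library. PPP1R3C made 25.3% (interval 22.7% to 28.1%) and 50.5% (interval 48.4% to 52.6%), and so took the first place from PPP1R3D. PPP1R3B made 11.1% and 12.8%, and PPP1R3G made 3.69% and 10.2%.

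**Figure D2:**
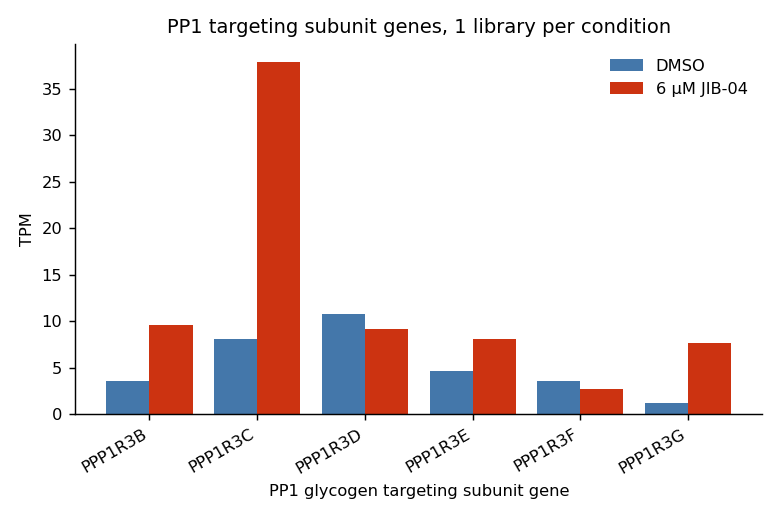
Level in TPM of 6 genes for PP1 glycogen targeting subunits in the DMSO control library (blue bars) and in the JIB-04 library (red bars), 1 library per condition and no error bars, with PPP1R3A, listed at 0 in both, left out. PPP1R3C goes from 8.02 to 37.9 TPM, while PPP1R3D, the highest in DMSO, is at 10.8 and 9.19 TPM.

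The phosphorylases differed from each other. PYGL (Entrez 5836, minus strand of chromosome 14, 51371935 to 51411248), the liver isoenzyme, was at 61.9 TPM in DMSO and 132 TPM after JIB-04, a log2 ratio of 1.08 (counting error 1.01 to 1.16, on 2094 and 3694 fragments). All 20 exons of its main transcript had log2 ratios above 0, from 0.88 to 1.34, and 12 of them passed 2-fold. PYGL therefore stood just past the threshold, and 745 described genes had a higher ratio.
PYGB (Entrez 5834, plus strand of chromosome 20, 25228706 to 25278648), the isoenzyme first described in brain, was at 71.4 TPM in DMSO and 95.4 TPM after JIB-04. Its log2 ratio was 0.41 (counting error 0.35 to 0.48, on 3511 and 3876 fragments), and this interval did not overlap that of PYGL. None of its 20 exons passed 2-fold, and their log2 ratios ran from 0.01 in exon 1 to 0.68 in exon 7. PYGM, the muscle isoenzyme of the wider list, was at 0.02 TPM in DMSO and 0.14 TPM after JIB-04 and was not described. PYGB made 53.6% of the phosphorylase TPM in the control library (interval 52.2% to 54.9%) and 41.9% in the JIB-04 library (interval 40.8% to 43.0%). The more abundant phosphorylase transcript was thus PYGB in the control library and PYGL in the JIB-04 library.
The balance between synthase and phosphorylase transcripts also differed. GYS1 and GYS2 summed to 98.0 TPM in DMSO and 507 TPM after JIB-04, and PYGL, PYGB and PYGM to 133 and 228 TPM. The ratio of the synthase sum to the phosphorylase sum was 0.74 in the control library and 2.23 in the JIB-04 library. Set against each isoenzyme, the GYS1 level was 1.58 and 3.84 times that of PYGL, and 1.37 and 5.32 times that of PYGB. These are levels of mRNA, and enzyme activity and glycogen were not measured in these data.

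PGM1 and UGP2, which lead from glucose 6-phosphate to UDP-glucose, were the most abundant of the 10 genes in the control library and had log2 ratios below 1. PGM1 (Entrez 5236, plus strand of chromosome 1, 64058947 to 64125916) was at 156 TPM in DMSO and 288 TPM after JIB-04, a log2 ratio of 0.88 (counting error 0.83 to 0.93, on 4589 and 6995 fragments). The PGM1 transcripts start at 3 different bases. NM_002633, which starts at 64058947, was at 152 and 283 TPM and made 97.5% and 98.5% of the gene. NM_001172819, which starts at 64059480, was at 0.88 and 0.96 TPM, and NM_001172818, which starts at 64088887, at 3.03 and 3.38 TPM. The intervals of the log2 ratio of these minor PGM1 transcripts held 0, at -0.36 to 0.48 and -0.22 to 0.45, whereas that of NM_002633 ran from 0.84 to 0.95. The 11 exons of NM_002633 had log2 ratios from 0.59 to 1.06.
UGP2 (Entrez 7360, plus strand of chromosome 2, 64068098 to 64118696) was at 114 TPM in DMSO and 181 TPM after JIB-04, a log2 ratio of 0.66 (counting error 0.59 to 0.73, on 2929 and 3823 fragments). Among the 10 genes, the log2 ratios of its exons had the widest span, 1.90 from the lowest to the highest. NM_006759, starting at 64069014, was at 78.7 and 114 TPM with a log2 ratio of 0.53 (counting error 0.45 to 0.62). NM_001001521, which starts upstream at 64068098, was at 35.7 and 66.7 TPM with a log2 ratio of 0.88 (counting error 0.76 to 1.00). Its share of the UGP2 level was 31.2% in the control library and 36.8% in the JIB-04 library.
Along NM_006759 the log2 ratio was 1.68 in exon 1 and 1.195 in exon 2, between 0.05 and 0.64 in exons 3 to 9, and -0.21 in exon 10, the last. On the TPM scale, the coverage of exon 1 was 24.8 in DMSO and 79.8 with JIB-04, and that of exon 10 was 69.9 and 60.3. The ratio along NM_006759 was thus highest at its 5′ end and lowest at its 3′ end. This exon coverage is the part assigned to NM_006759, and it depends on how reads were divided between it and NM_001001521. The first exon stood 1.11 above the median exon, more than in 99.7% of the 3274 genes compared in this way. The last exon of UGP2 lay below its median exon by more than in most genes, at -0.79, with 3.42% of the genes lower. The cause of this slope was not tested.

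**Figure D3:**
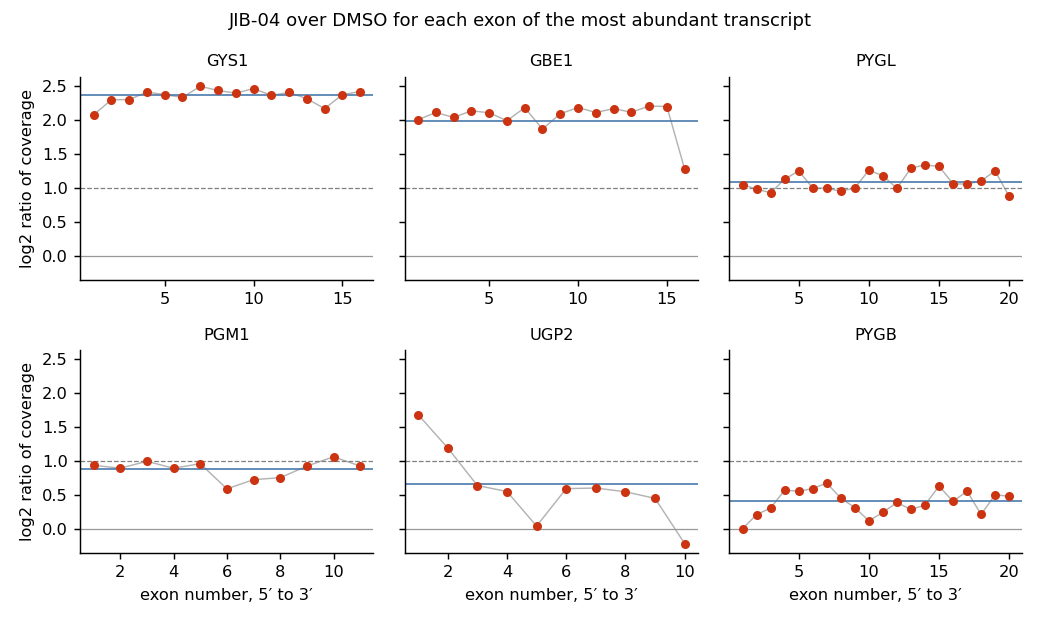
Log2 ratio of coverage on the TPM scale, JIB-04 over DMSO, for each exon of the most abundant transcript of GYS1, GBE1, PYGL, PGM1, UGP2 and PYGB, numbered from the 5′ end, 1 library per condition. The blue line is the log2 ratio of the whole gene and the dashed line is 2-fold. GYS1 lies between 2.07 and 2.49 in all 16 exons, GBE1 is lower in its last exon, at 1.28, and UGP2 runs from 1.68 in exon 1 to -0.21 in exon 10.

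The order of the 10 genes by level differed between the libraries. In the control library it was PGM1, UGP2, GYS1, PYGB, PYGL, GBE1, PPP1R3C, PPP1R3B, PPP1R3G and GYS2. In the JIB-04 library, GYS1 moved from rank 3 to rank 1 and GBE1 from rank 6 to rank 3, ahead of UGP2, while the 4 genes at the end of the order kept their places. Each gene stood above the next by more than counting error in both libraries. The closest neighbours were PYGB and PYGL in the control library, with a ratio of levels of 1.15 (interval 1.09 to 1.22), and GBE1 and UGP2 in the JIB-04 library, with a ratio of 1.05 (interval 1.01 to 1.09). Whether such close pairs would keep their order in other cultures was not tested. The GYS1 level was 0.63 times the PGM1 level in the control library and 1.76 times in the JIB-04 library.

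A wider list of 36 other genes of glycogen, glucose phosphate and UDP-sugar metabolism was set beside the 10 genes. Of these, 31 were described, 1 was higher and 2 were lower, and 28 had ratios between these limits. The share of higher genes was 3.23%, beside 5.99% of all described genes, 6.88% of which were lower. The median log2 ratio of the wider list was -0.18, close to that of all described genes. The counting-error interval lay above 0 for 8 of them and below 0 for 15. The interval was not computed for all described genes. Of those, 5739 of 14450 had a log2 ratio above 0, beside 12 of the 31 described here. PYGM, PHKG1, PPP1R3A, PGM5 and G6PC2 were not described.
The higher gene was STBD1, which anchors glycogen to membranes and takes part in its delivery to lysosomes. STBD1 was at 35.2 TPM in DMSO and 102 TPM after JIB-04, and its ratio was 2.84 (counting error 2.66 to 3.03). The lower genes both serve the release of free glucose from glucose 6-phosphate in the endoplasmic reticulum. G6PC1, the catalytic subunit of glucose 6-phosphatase, was at 18.96 and 8.31 TPM, with a log2 ratio of -1.10 (counting error -1.27 to -0.94). SLC37A4, the transporter that carries glucose 6-phosphate into the endoplasmic reticulum, was at 50.2 and 17.4 TPM, with a log2 ratio of -1.48 (counting error -1.64 to -1.32). G6PC3, the widely expressed phosphatase, was at 88.4 and 78.1 TPM. SLC37A4 stayed past 2-fold under each alternative for pseudocount, unit, scaling and transcript, whereas G6PC1 missed it with the median of well expressed genes at 0 (-0.95) and with a pseudocount of 5 TPM (-0.85).
The genes whose products start a glycogen particle had ratios of the opposite sign to those of GYS1 and GBE1. GYG1, glycogenin, the protein primer of glycogen, was at 56.4 and 36.2 TPM, with a log2 ratio of -0.63 (counting error -0.76 to -0.49). GYG2, its liver form, had a log2 ratio of -0.47. Neither passed 2-fold.
Among the 4 described subunits of phosphorylase kinase, which activates PYGL and PYGB, PHKA2 of the liver form was at 83.8 and 164 TPM, with a log2 ratio of 0.96 (counting error 0.91 to 1.01), and the others had log2 ratios from -0.43 to 0.05. PHKA2 passed 2-fold with the median of well expressed genes at 0 (1.11) and in TPM recomputed without the 50 most abundant genes (1.01). PPP1CA, the most abundant catalytic subunit of PP1, was at 519 and 480 TPM, and GSK3A, a kinase that inhibits glycogen synthase, at 115 and 101 TPM. PGM2, a phosphoglucomutase acting mainly on pentose phosphates, was at 52.2 and 66.8 TPM, UGDH, which oxidizes UDP-glucose, at 115 and 112 TPM, and NHLRC1, which encodes malin, at 4.77 and 3.63 TPM.

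**Figure D4:**
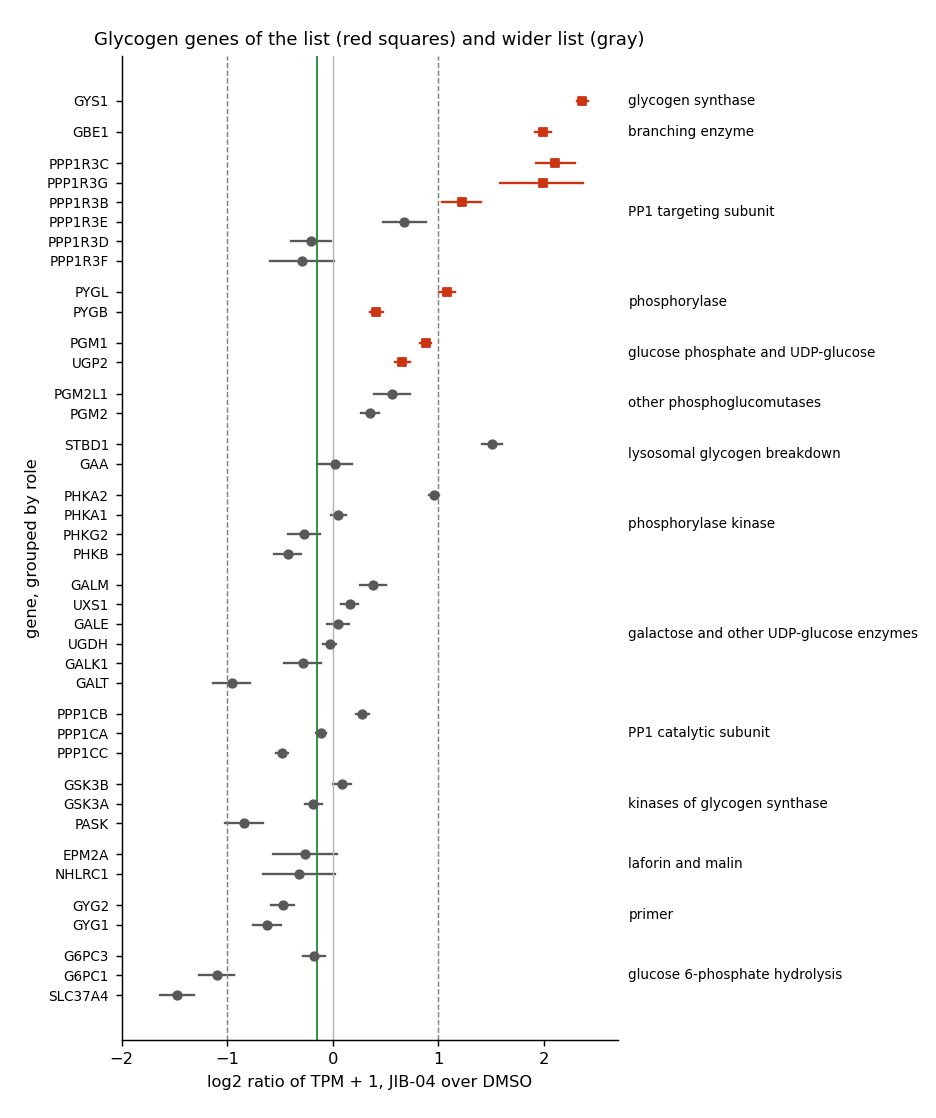
Log2 ratio of TPM + 1, JIB-04 over DMSO, with its 95% counting-error interval for the 9 described glycogen metabolism genes (red squares) and described genes of the wider list (gray circles), grouped by role, 1 library per condition. The dashed lines are 2-fold and the green line is the median of all described genes, -0.15. GYS1 stands at 2.37, STBD1 is the single gray point past 2-fold on the right, and G6PC1 and SLC37A4 lie past 2-fold on the left.

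Upper glycolysis, which shares glucose 6-phosphate with glycogen synthesis, was described for comparison. Of 16 genes for glucose transporters, hexokinases, GPI and the phosphofructokinases, 13 were described, 9 were higher and 1 was lower. Among all described genes 5.99% were higher and 6.88% lower. The median log2 ratio of the upper glycolysis genes was 1.51, beside 1.22 for the glycogen metabolism genes and -0.15 for all described genes. The highest ratios were those of HK2, a hexokinase, at 3.69 and 64.8 TPM with a log2 ratio of 3.81 (counting error 3.68 to 3.94), and of PFKFB4, which makes and degrades fructose 2,6-bisphosphate, at 27.5 and 178 TPM with a log2 ratio of 2.65. The lowest were those of SLC2A2, the glucose transporter of hepatocytes, at 47.1 and 12.1 TPM with a log2 ratio of -1.87 (counting error -2.02 to -1.73), and of PFKM, the muscle phosphofructokinase, at 51.0 and 31.2 TPM with a log2 ratio of -0.69.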

How the data were processed

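RNA of PLC/PRF/5 cells, an established cell line, was analysed in 2 libraries, 1 with DMSO and 1 with 6 µM JIB-04 for 24 h. Per the labels, reads were handled with StringTie 1.3.3b, HISAT2 2.0.5, Bowtie2 2.2.6, FastQC 0.11.5 and Trimmomatic 0.32, and the build was GRCh37 (hg19). The authors deposited coverage, FPKM and TPM for each annotated RefSeq transcript, estimated by StringTie with a strand setting, and no read counts. Estimates for overlapping transcripts of 1 gene therefore depend on how StringTie divided the reads.

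TPM was summed per gene by Entrez identifier, with symbols for 27559 of 27685 genes from a RefSeq table of GRCh38.p14. A pseudocount of 1 TPM, which understates the ratio of weak genes, and a minimum of 1 TPM in either library were used. Fragments were coverage times length over 202 bases, the commonest value among weakly covered transcripts. Exon coverage, scaled to TPM, was compared where it was at least 1 in both libraries. Gene positions were read from the files on hg19, and promoter windows from RefSeq on GRCh38.p14. Protein sequences were not used here.

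The genes, the wider list, the comparison list, the markers and the alternatives were chosen with earlier results of these data known. Named genes were the 10 genes of the list, in the wider list each gene past 2-fold and the most abundant gene of each role, the 2 highest and 2 lowest ratios of upper glycolysis, and neighbours starting within 2000 bases on the opposite strand. A gene that this rule names is not reported here. GYG2, PASK, PPP1R3A, PPP1R3E, PPP1R3F and the hepatocyte markers given singly were named in addition, after their values were seen. Alternatives were pseudocounts of 0.1 and 5 TPM, FPKM, libraries centred on the median of genes with at least 10 TPM in both libraries, TPM without the 50 most abundant genes, the most abundant transcript only, other minimum levels, thresholds of 1.5-fold and 3-fold, and, for shares, fragments without length correction. The script was tested on simulated data. The software was SciPy 1.17.1, pandas 2.3.3, numpy 2.4.6 and matplotlib 3.10.9 under Python 3.11.15.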

Additional observations from a re-analysis of the deposited data

How the results depend on the processing

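The log2 ratios of the 9 described glycogen metabolism genes were above 0 in 54 of 54 values under the alternatives for pseudocount, unit, scaling and transcript. A pseudocount cannot change the sign of a ratio. Median centring and the removal of the 50 most abundant genes raised the values of all 9, so these settings could not test the sign. Over all 10 genes, 17 of 60 values lay outside the counting-error interval of the main value. The count of these genes at least 2-fold higher was 6, and it was 5 with a pseudocount of 5 TPM or with FPKM, 7 with libraries centred on the median of well expressed genes, 8 at 1.5-fold and 4 at 3-fold. PPP1R3G moved most, between 1.03 and 2.61, and PPP1R3B ran from 0.77 to 1.42. The median of the genes was 1.42 with a pseudocount of 0.1 TPM and 1.03 with one of 5 TPM. In the wider list, 2 genes were higher with median centring, 2 without the 50 most abundant genes, 3 at 1.5-fold and 0 at 3-fold, and 1 was lower with a pseudocount of 5 TPM, 1 with median centring, 5 at 1.5-fold and 0 at 3-fold. With the most abundant transcript only, 3 were lower, the kinase gene PASK being added at -1.06. Of all 14450 described genes, 865 were higher, against 439 with a pseudocount of 5 TPM and 583 with FPKM. With median centring 1135 were higher, at 1.5-fold 1853 and at 3-fold 318. Lower genes numbered 994, against 409 with a pseudocount of 5 TPM, 695 with FPKM and 627 with median centring. At 1.5-fold 3030 were lower and at 3-fold 154. Higher genes made 46.5% of the calls, and 64.4% with median centring.

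With 1 library per condition, variation between cultures was not measured and no library was left out in turn. No paired analysis was possible because each condition has 1 library. Depth limits GYS2, with 15 and 7 estimated fragments, and PPP1R3G, with 24 and 130. The intervals cover counting error only and rest on an estimated fragment size.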
